A study of Mus musculus with 4 samples.

Results

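The lipid droplet is the organelle in which a liver cell stores triacylglycerol, and 10 genes that encode its coat and its lipolytic control were examined in mouse livers lacking Cnot3. The genes were taken by name: the 3 Cide genes (Cidea, Cideb and Cidec), 4 perilipin genes (Plin2, Plin3, Plin4 and Plin5), and 3 genes that set the rate of triacylglycerol breakdown (Pnpla2, Abhd5 and G0s2). Of the 45037 probe sets on the array, 14 named 1 of these genes alone, and 13 of the 14 passed the filter on low values, so that each of the 10 genes had at least 1 measured probe set among 16758 measured genes. RNA came from whole livers of 4-week-old C57BL/6 mice, 1 array per liver. In 2 Cnot3KO livers, floxed Cnot3 was deleted by Cre recombinase under the albumin promoter, which acts in hepatocytes. The paper reports recombination in most liver cells after birth and proposes that cells without it are non-hepatic. It also describes albumin in fetal hepatoblasts, which form hepatocytes or cholangiocytes. Which other liver cells kept the gene was not analysed here. The 2 Control livers are called wild type in the labels, whereas the methods used floxed, heterozygous or Cre-only mice as controls, and which of these genotypes each liver had is not given. The sex of the mice and whether they carried the fluorescent recombination reporter bred into some of the mice are not given either. Nothing beyond the numbering describes how the livers of a group relate to each other, so the p-values measure the spread between these arrays.

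A droplet has a core of triacylglycerol and sterol ester under a single layer of phospholipid, and proteins on that layer decide how fast the core grows, merges or is consumed. Cide proteins gather where droplets touch and let lipid pass from the smaller to the larger one, and Cideb also helps to load lipid onto very low density lipoprotein (VLDL). Perilipins coat the surface and limit access of lipases. Pnpla2 (adipose triglyceride lipase) takes the first fatty acid off triacylglycerol, Abhd5 (CGI-58) activates it and G0s2 inhibits it. Plin2 is the usual coat protein of hepatocytes, whereas Cidea and Cidec are best known from brown and white fat and are also made in fatty liver. The authors saw many lipid droplets in Cnot3-deficient livers soon after birth but did not detect ectopic lipid at 4 weeks. Lipid content was not analysed here.

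Values are log2 of the intensities that the authors made by Robust Multi-array Average (RMA). Array medians were 3.09 and 3.09 in Cnot3KO and 3.11 and 3.14 in Control, and the 20th percentiles were 1.54 and 1.55 in Cnot3KO and 1.64 and 1.69 in Control. A difference is Cnot3KO minus Control, ± is its standard error (SE) with n = 2 arrays per group, and every adjusted p is from limma with Benjamini-Hochberg adjustment over 38405 probe sets. A gene was called at an adjusted p under 0.05 on its main probe set, the one with the highest mean level. Cnot3 itself was at 5.15 and 5.30 in Cnot3KO livers, against 5.99 and 6.04 in Control livers, a difference of -0.79 ± 0.16 (adjusted p = 0.0372). The groups did not overlap, but leaving out any 1 array ended the call, and the differences then ran from -0.87 to -0.71. The second Cnot3 probe set differed by -0.40 (adjusted p = 0.218), and whether either one lies in the deleted part of the gene was not analysed here.

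Promoter sequences are shown for Cidec, Plin3 and Plin2, the 3 genes with the largest increases in the droplet group. They are windows at annotated starts, not at starts measured on these arrays. They run from 250 bases before to 50 bases after the start in RefSeq (GRCm38.p6), on the strand of the gene, and 9 of the 10 genes had at least 1 entry, 11 in all. Cidec has 2 starts in RefSeq on chromosome 6, from which transcripts with different first exons are made. Capitals mark matches to any of the motifs searched on both strands.
Cidec, first start (chr6:113435711-113436010, minus strand): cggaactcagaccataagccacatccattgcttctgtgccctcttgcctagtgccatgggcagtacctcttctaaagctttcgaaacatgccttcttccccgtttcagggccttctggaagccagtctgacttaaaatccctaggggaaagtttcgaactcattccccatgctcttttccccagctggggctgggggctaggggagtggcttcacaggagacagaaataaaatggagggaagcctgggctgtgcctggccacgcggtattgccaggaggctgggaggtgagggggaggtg
Cidec, second start (chr6:113434715-113435014, minus strand): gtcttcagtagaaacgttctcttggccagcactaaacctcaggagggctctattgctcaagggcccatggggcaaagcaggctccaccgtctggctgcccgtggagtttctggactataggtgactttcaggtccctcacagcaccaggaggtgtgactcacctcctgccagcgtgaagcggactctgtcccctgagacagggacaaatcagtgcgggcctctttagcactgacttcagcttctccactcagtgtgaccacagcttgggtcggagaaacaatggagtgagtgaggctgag
Plin3 (chr17:56290462-56290761, minus strand): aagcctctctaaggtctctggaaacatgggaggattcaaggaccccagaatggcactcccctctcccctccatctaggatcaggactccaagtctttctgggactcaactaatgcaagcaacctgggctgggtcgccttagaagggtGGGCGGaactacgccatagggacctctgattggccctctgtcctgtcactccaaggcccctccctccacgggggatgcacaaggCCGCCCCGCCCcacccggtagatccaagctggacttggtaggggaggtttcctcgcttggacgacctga
Plin2 (chr4:86670010-86670309, minus strand): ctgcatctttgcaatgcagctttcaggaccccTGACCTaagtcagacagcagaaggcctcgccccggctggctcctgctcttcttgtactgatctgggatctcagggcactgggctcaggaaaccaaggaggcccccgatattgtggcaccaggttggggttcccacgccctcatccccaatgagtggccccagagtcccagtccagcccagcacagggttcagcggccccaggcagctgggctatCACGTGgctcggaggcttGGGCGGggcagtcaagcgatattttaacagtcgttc
The motifs were the nuclear receptor half-site AGGTCA, its direct repeat AGGTCANAGGTCA, which contains the half-site, the E-box CACGTG, the cAMP response element TGACGTCA, the TATA box TATAAA and the GC box GGGCGG. No letters of either Cidec window matched them. The Plin3 window held 3 GC boxes, a motif found in 35.7% of the 32851 promoters in the table. The Plin2 window held a half-site on the opposite strand, an E-box and a GC box. The half-site was found in 16.3% of all promoters and the E-box in 7.15%, while the direct repeat was found in 0.0396%, the cAMP response element in 1.79% and the TATA box in 13.6%. A match describes letters and not binding, and which Cidec start was used was not analysed here.

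Among the Cide genes, Cidec showed the largest difference of the 10 genes and was 13.8-fold higher in Cnot3KO livers, Cidea was 2.07-fold higher, and Cideb was measured at a lower level that did not pass the test. Cidec (probe set 1452260_at), which in fat cells turns many small droplets into a few large ones, was at 6.16 and 5.99 in Cnot3KO livers, against 2.41 and 2.17 in Control livers. On the linear scale these were intensities of 71.4 and 63.6 in Cnot3KO and 5.31 and 4.51 in Control. Control livers thus lay below the median of their arrays for Cidec and Cnot3KO livers above it. The difference was 3.78 ± 0.18 (adjusted p = 0.00304), and the 95% interval of the fold ran from 10.1 to 18.8. No detection calls were used, so whether Cidec was above background in Control livers is not known.

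Cidea (1417956_at), which does the same work at droplet contacts in brown fat, was at 3.52 and 3.60 in Cnot3KO livers, against 2.38 and 2.63 in Control livers. The groups were apart, and the difference was 1.05 ± 0.18 (adjusted p = 0.0216). The Cidea intensities were low, 11.4 and 12.1 in Cnot3KO and 5.21 and 6.19 in Control. Whether Cidea was above background is likewise not known. The Cidea call was lost without Control 1 (0.93, adjusted p = 0.0734), without Cnot3KO 1 (1.09, adjusted p = 0.0915) and without Cnot3KO 2 (1.01, adjusted p = 0.0976). Cideb (1418976_s_at, its only probe set), the Cide protein of normal hepatocytes, was at 8.98 and 9.12 in Cnot3KO livers, against 9.68 and 9.82 in Control livers. All Cnot3KO values were below all Control values. The Cideb difference of -0.69 ± 0.17 had a 95% interval of -1.11 to -0.27 and an adjusted p of 0.0537, just outside the threshold, and it passed under 4 of 16 other ways of processing.

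The 3 Cide genes were also set against each other within each array. The log2 ratio of Cidec to Cidea was 2.64 and 2.39 in Cnot3KO livers, against 0.03 and -0.46 in Control livers. The ratio of Cidec to Cideb was -2.82 and -3.13 in Cnot3KO livers, against -7.27 and -7.64 in Control livers. The ratios were higher by 2.73 and by 4.48 in Cnot3KO livers, so the Cide genes changed by unequal amounts. Neither ratio overlapped between groups, and the exact 2-sided permutation p was 0.333 for each, the smallest that 2 arrays against 2 can give. Since probe sets differ in how strongly they bind their target, only the change of a ratio is read here, not its size.

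**Figure D1:**
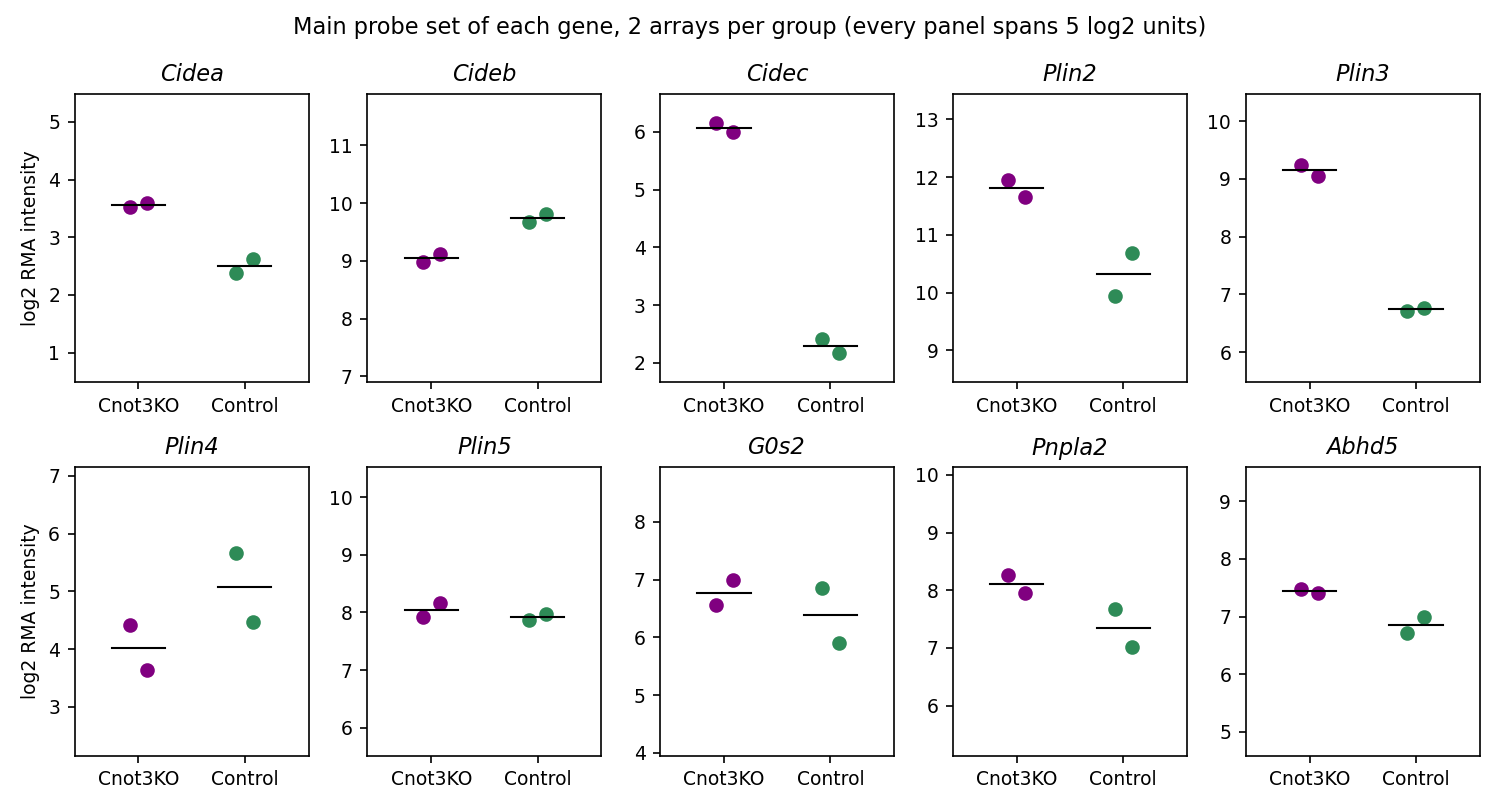
Log2 RMA intensity of the main probe set of each of the 10 genes (vertical axes, each spanning the same number of log2 units) on every Cnot3KO array (purple) and Control array (green); points are arrays and the black bars are group means. Cidec (6.16 and 5.99 in Cnot3KO, 2.41 and 2.17 in Control) and Plin3 (9.25 and 9.05 in Cnot3KO, 6.71 and 6.77 in Control) have the widest gaps, while the groups overlap for Plin5 and G0s2.

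Of the perilipins, Plin3 and Plin2 rose in Cnot3KO livers, by 5.31-fold and 2.81-fold, whereas Plin4 and Plin5 did not pass the test. Plin3 (1416424_at), a protein that sits in the cytosol and binds newly formed droplets, was at 9.25 and 9.05 in Cnot3KO livers, against 6.71 and 6.77 in Control livers. Both groups were tight, with the difference at 2.41 ± 0.17 (adjusted p = 0.00422) and a 95% interval of 1.98 to 2.83. Plin2 (1448318_at), whose protein is degraded when it is not on a droplet, was at 11.95 and 11.66 in Cnot3KO livers, against 9.95 and 10.68 in Control livers. The Control livers differed from each other more than the Cnot3KO livers did, although the groups stayed apart. The Plin2 difference was 1.49 ± 0.28 (adjusted p = 0.0299, 95% interval 0.78 to 2.20). The call was lost without Control 1 (1.13, adjusted p = 0.073), without Cnot3KO 1 (1.35, adjusted p = 0.109) and without Cnot3KO 2 (1.63, adjusted p = 0.058).

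Plin4 (1418595_at), a perilipin mainly of fat cells, was at 4.41 and 3.64 in Cnot3KO livers, against 5.67 and 4.47 in Control livers. Arrays of the same group lay far apart, and the difference of -1.04 ± 0.46 had an interval from -2.20 to 0.12 (adjusted p = 0.198). Plin5, which in oxidative tissues tethers droplets to mitochondria, had 2 probe sets. The main one (1441915_s_at) was at 7.93 and 8.17 in Cnot3KO livers, against 7.87 and 7.98 in Control livers, and the groups overlapped. Its difference was 0.13 ± 0.17 with a 95% interval of -0.31 to 0.57 (adjusted p = 0.66). The other (1424937_at) was at 7.50 and 7.82 in Cnot3KO livers, against 7.26 and 7.67 in Control livers, a difference of 0.19 ± 0.22 (adjusted p = 0.59). For Plin5 the interval of the main probe set leaves out a 2-fold change in either direction, which the interval of Plin4 does not.

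All 4 of these perilipins coat droplets, and 3 of them lie together on chromosome 17. Plin4 and Plin5 have 0 protein-coding genes between them in RefSeq, and 7 lie between Plin5 and Plin3. Of these neighbours only Plin3 was called. Within arrays, the log2 ratio of Plin3 to Plin5 was 1.31 and 0.88 in Cnot3KO livers, against -1.16 and -1.21 in Control livers, and was thus higher by 2.28. The ratio of Plin2 to Plin5 was 4.02 and 3.49 in Cnot3KO livers, against 2.08 and 2.70 in Control livers, higher by 1.36. The ratio of Plin3 to Plin2 was -2.70 and -2.61 in Cnot3KO livers, against -3.25 and -3.91 in Control livers, higher by 0.92. In none of the 3 did the groups overlap, and each had an exact 2-sided permutation p of 0.333, again the smallest possible.

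The genes of lipolytic control were measured at higher mean levels in Cnot3KO livers on their main probe sets, by 0.39 to 0.76, and 0 of the 3 passed the test in limma, although 2 had an unadjusted p under 0.05. Pnpla2 (1428143_a_at) was at 8.26 and 7.95 in Cnot3KO livers, against 7.68 and 7.01 in Control livers. The groups were apart, with a difference of 0.76 ± 0.27 (95% interval 0.07 to 1.45, adjusted p = 0.132), which was 0.43 without Control 2 and 1.09 without Control 1. A second Pnpla2 probe set (1428591_at), near the low end of each array, was at 1.93 and 1.81 in Cnot3KO livers, against 2.22 and 1.72 in Control livers, a difference of -0.10 ± 0.22 (adjusted p = 0.796).

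Abhd5 (1417566_at) was at 7.47 and 7.40 in Cnot3KO livers, against 6.71 and 6.99 in Control livers. The groups did not overlap on this probe set, and the difference was 0.58 ± 0.18 (95% interval 0.13 to 1.03, adjusted p = 0.0945). Another Abhd5 probe set (1417565_at) was at 6.36 and 6.17 in Cnot3KO livers, against 6.25 and 6.82 in Control livers, a difference of -0.27 ± 0.24 (adjusted p = 0.482), so the probe sets of Abhd5 differed in direction and neither was called. The remaining one (1447548_at) did not pass the filter, with 1.06 and 1.07 in Cnot3KO and 1.02 and 0.98 in Control. G0s2 (1448700_at) was at 6.56 and 6.99 in Cnot3KO livers, against 6.86 and 5.91 in Control livers. The groups overlapped, the difference was 0.39 ± 0.35 (95% interval -0.50 to 1.28, adjusted p = 0.493), and it was -0.08 without Control 2.

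**Figure D2:**
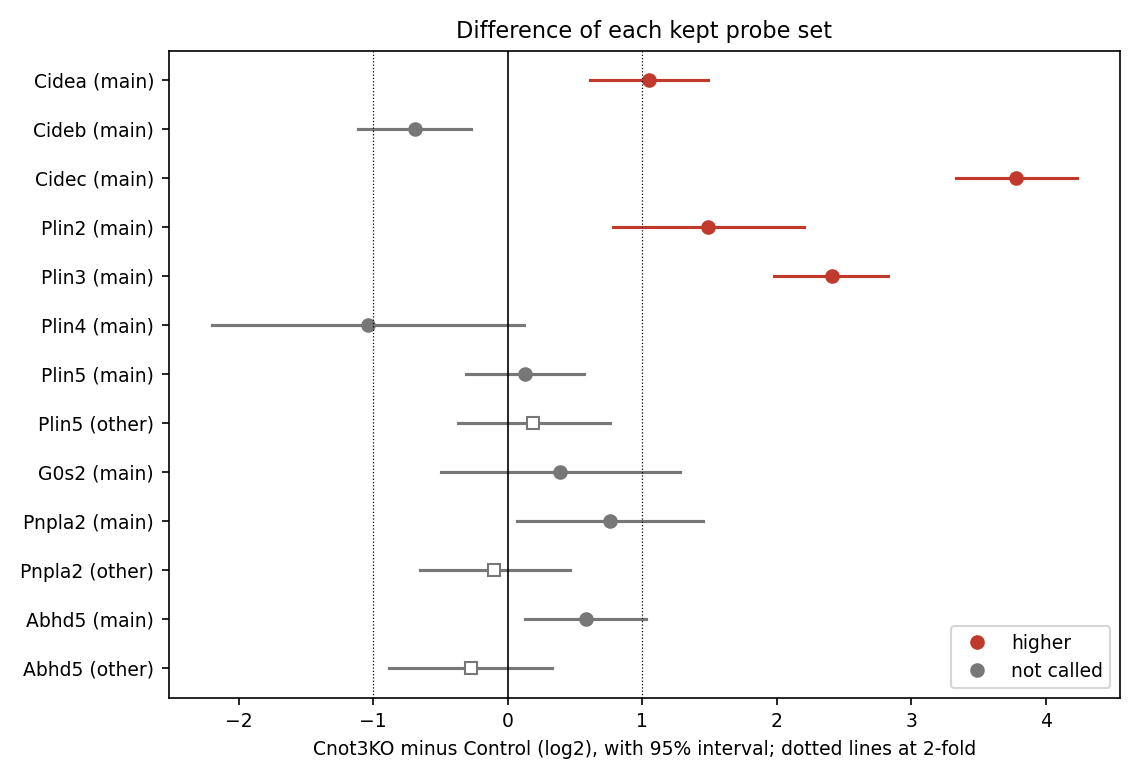
Difference between Cnot3KO and Control (horizontal axis, log2) of the 13 probe sets that passed the filter, with its 95% interval from limma; filled circles are main probe sets, open squares other probe sets of the same gene, red marks called probe sets, and dotted lines a 2-fold change. The 4 red intervals (Cidea, Cidec, Plin2 and Plin3) lie above 0, and the second probe sets of Pnpla2 and Abhd5 lie below 0.

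Among the 10 genes, 4 were called higher (Cidea, Cidec, Plin2 and Plin3), 0 lower and 6 not called. Of all measured genes, 12.2% were called higher and 4.64% lower. With the unadjusted limma p taken at under 0.05, 6 of the 10 were higher and 1 was lower. At that p, 3842 of all 16758 measured genes were higher and 2079 lower. The median difference over the 10 genes was 0.67, beside 0.00 over all genes. By probe set, 4 of 13 were called higher and 0 lower, beside 8.48% and 4.78% of all probe sets, with a median of 0.39. In 8 of the 10 genes all Cnot3KO values lay on one side of all Control values, as they did in 65.1% of all measured genes. The genes were chosen by name with earlier results of these arrays known, so their share of calls is a description.

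**Figure D3:**
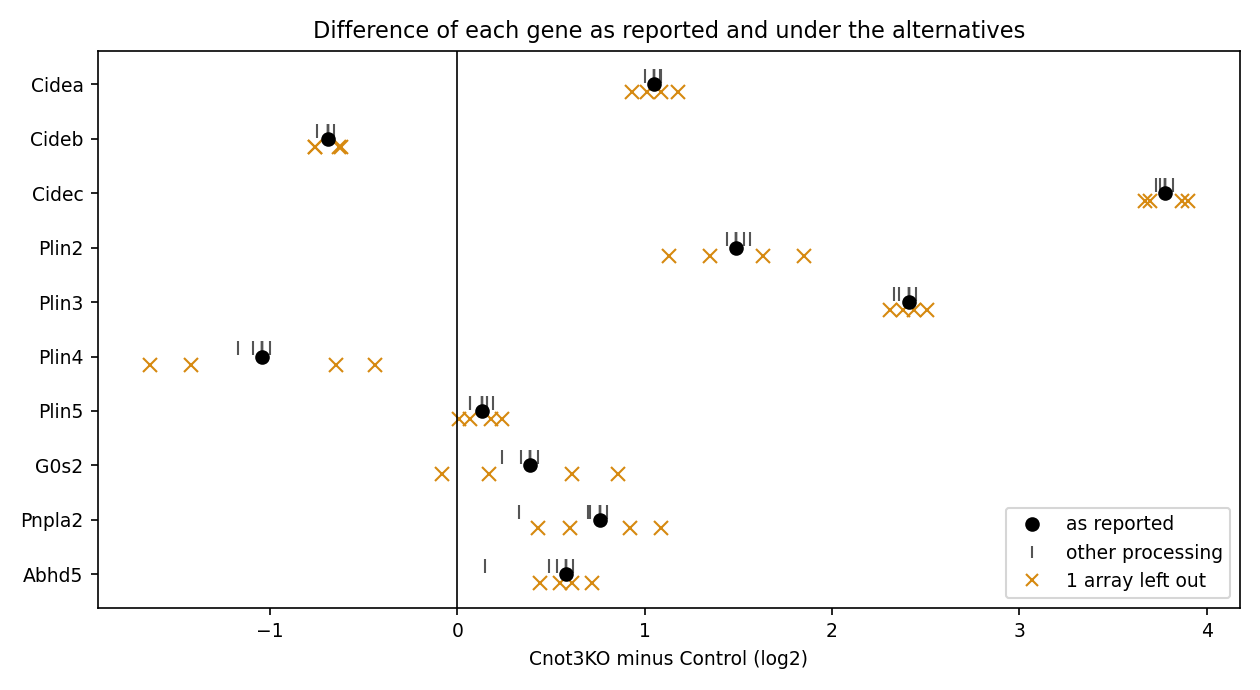
Difference between Cnot3KO and Control (horizontal axis, log2) of each gene's main probe set as reported (black dot), under other filters, normalizations, priors, tests and probe set choices (grey ticks) and with 1 array left out (orange crosses). Cidec (3.67 to 3.90) and Plin3 (2.31 to 2.51) moved least relative to their size, Plin4 ran from -1.64 to -0.44 and G0s2 from -0.08 to 0.86.

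The 7 lists of other genes that act on droplets or on their lipid held 81 genes, of which 77 were measured, and of these 7 were called higher and 12 lower, with a median difference of -0.35. The shares over all measured genes, 12.2% called higher and 4.64% lower, stand beside the counts of each list and of the marker lists below. Of the 9 lipases and their partners, 1 was called higher and 2 lower (median -0.08). Hilpda, another inhibitor of Pnpla2, was at 5.21 and 5.54 in Cnot3KO livers, against 3.75 and 4.03 in Control livers (difference 1.48 ± 0.20, adjusted p = 0.0141). Mgll, which frees the last fatty acid from monoacylglycerol, was at 6.13 and 6.24 in Cnot3KO livers, against 9.29 and 8.79 in Control livers (-2.85 ± 0.22, adjusted p = 0.00486). Ces1d, a carboxylesterase that hydrolyses triacylglycerol, was at 7.01 and 7.90 in Cnot3KO livers, against 10.46 and 10.40 in Control livers (-2.98 ± 0.31, adjusted p = 0.00839). The called genes of this list thus comprised an inhibitor that rose and enzymes that fell, while the first lipase, Pnpla2, was not called.

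In the list of droplet formation and surface proteins, 0 of 11 genes were called higher and 4 lower (median -0.36). Fitm1 and Fitm2 are endoplasmic reticulum proteins needed for droplets to bud. Fitm1 was at 4.71 and 4.98 in Cnot3KO livers, against 6.84 and 7.77 in Control livers (-2.46 ± 0.33, adjusted p = 0.0137). Fitm2 was at 6.13 and 6.31 in Cnot3KO livers, against 7.63 and 7.02 in Control livers (-1.11 ± 0.25, adjusted p = 0.0451). The surface enzyme Hsd17b11 differed by -1.17 ± 0.27 (adjusted p = 0.0474) and Ldah, a droplet hydrolase, by -0.99 ± 0.22 (adjusted p = 0.0422), though 5 other Ldah probe sets were not called. The other Hsd17b11 probe set differed by -1.09 and was not called (adjusted p = 0.105). A second probe set of Pcyt1a, an enzyme of phosphatidylcholine synthesis, was called higher (0.94, adjusted p = 0.0244), although its main one was not. The coat genes Plin2 and Plin3 and the 4 genes called in this list therefore went in opposite directions.

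Of the 14 measured genes of triacylglycerol synthesis, 3 were called higher and 0 lower (median -0.29). Mogat2, which makes diacylglycerol from monoacylglycerol and is best known from the intestine, was at 7.70 and 8.00 in Cnot3KO livers, against 3.70 and 3.78 in Control livers. The difference of 4.11 ± 0.18, 17.3-fold (adjusted p = 0.00273), exceeded that of Cidec. Lpin3, a phosphatidic acid phosphatase, was at 5.14 and 4.43 in Cnot3KO livers, against 3.02 and 2.73 in Control livers (1.91 ± 0.28, adjusted p = 0.0163). Dgat1, which adds the last acyl chain, was at 7.99 and 7.88 in Cnot3KO livers, against 6.78 and 6.52 in Control livers (1.28 ± 0.18, adjusted p = 0.0144). That Dgat1 probe set can bind more than 1 transcript. The other was at 2.54 and 2.19 in Cnot3KO livers, against 2.78 and 2.82 in Control livers, below the median of every array. It differed by -0.44 (adjusted p = 0.193). The direction of Dgat1 thus differed between the probe sets, of which the second had low signal. Although 0 genes of this list were called lower on their main probe sets, other probe sets were: 1 of Lpin1 (-2.01, adjusted p = 0.0413, main -1.86, adjusted p = 0.0555) and 2 of Agpat3 (-1.15 and -1.74, adjusted p = 0.0205 and 0.0362, main -0.33, adjusted p = 0.265).

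Lipid leaves the liver as VLDL, and 0 of 7 genes of its assembly were called higher and 1 lower (median -0.06). Apob, the structural protein of the particle, was at 9.33 and 8.87 in Cnot3KO livers, against 10.23 and 10.24 in Control livers (-1.13 ± 0.21, adjusted p = 0.0278). In the list of fatty acid and glycerol uptake, 2 of 11 genes were called higher and 2 lower (median 0.14). Cd36, a fatty acid receptor, was at 8.52 and 8.52 in Cnot3KO livers, against 6.75 and 6.62 in Control livers (1.83 ± 0.16, adjusted p = 0.00596). Aqp7, a glycerol channel of fat cells, was at 4.19 and 4.32 in Cnot3KO livers, against 1.78 and 2.19 in Control livers (2.27 ± 0.20, adjusted p = 0.00635). The transporters and acyl-CoA synthetases Slc27a2 and Slc27a5, both typical of hepatocytes, differed by -0.97 ± 0.22 (adjusted p = 0.049) and -1.44 ± 0.18 (adjusted p = 0.012). Genes of uptake thus changed in both directions.

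PPAR alpha is the nuclear receptor that switches on fatty acid oxidation in the fasted liver, and several perilipin and Cide genes are among its known targets. Of 13 measured other targets, 1 was called higher and 1 lower (median -0.47). Pdk4, which restrains glucose oxidation, was at 7.74 and 6.95 in Cnot3KO livers, against 3.97 and 4.46 in Control livers (3.13 ± 0.32, adjusted p = 0.00805). Acaa1b, a peroxisomal thiolase, differed by -0.77 ± 0.17 (adjusted p = 0.0454). Of the 13 targets, 11 were not called, as were 6 of the 10 droplet genes and 13943 of all 16758 measured genes. Whether PPAR alpha has a part in the higher levels of the 4 called droplet genes was not tested. Of 12 transcription factors of lipid metabolism, 0 were called higher and 2 lower (median -0.65). Mlxipl, the carbohydrate response factor ChREBP, was at 7.92 and 8.11 in Cnot3KO livers, against 9.87 and 9.57 in Control livers (-1.71 ± 0.19, adjusted p = 0.00923). Cebpb, a factor of liver and fat cell development, differed by -0.89 ± 0.19 (adjusted p = 0.0378). On a single probe set other than the main one, Ppargc1a was called higher (1.15, adjusted p = 0.0332) and Foxo1 lower (-0.88, adjusted p = 0.0376). Their main probe sets (0.70, adjusted p = 0.175, and -0.58, adjusted p = 0.114) and all their remaining ones were not called. Another probe set of the PPAR alpha target Angptl4 was at 0.75 and 0.70 in Cnot3KO livers, against 2.16 and 1.51 in Control livers. It passed the filter through Control 1 alone, so its call (-1.11, adjusted p = 0.0472) is not read as a decrease. The main Angptl4 probe set differed by -1.51 and was not called (adjusted p = 0.208). The receptors themselves were picked out after their values were seen. Ppara, the gene of PPAR alpha, differed by -1.74 ± 0.44 on its main probe set (adjusted p = 0.0596), and its other probe sets differed by -1.87 (adjusted p = 0.0544) and -1.94 (adjusted p = 0.0346), so that 1 of 3 was called lower and the groups were apart on each. Pparg, which drives Cidec and Plin2 in fat cells and in fatty liver, differed by 0.08 (adjusted p = 0.775).

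Where a list had 0 calls in a direction, limma gave 2 genes of droplet formation, 1 of VLDL assembly and 1 transcription factor higher, and 3 genes of triacylglycerol synthesis lower, with the unadjusted p under 0.05. By that measure, 3842 of all 16758 measured genes were higher and 2079 lower. Of the 19 genes called in the 7 lists, 8 stayed called whichever array was left out (Mgll, Fitm1, Mogat2, Cd36, Aqp7, Slc27a5, Pdk4 and Mlxipl). The calls of Acaa1b, Cebpb, Hsd17b11, Ldah and Slc27a2 were lost with the removal of any array. Their differences then ran from -0.88 to -0.66 for Acaa1b, from -1.05 to -0.74 for Cebpb, from -1.43 to -0.91 for Hsd17b11, from -1.22 to -0.76 for Ldah and from -1.18 to -0.75 for Slc27a2. Ces1d lost its call without Control 1 (-2.95, adjusted p = 0.0513), Dgat1 without Cnot3KO 1 (1.22, adjusted p = 0.0711), Hilpda without Control 1 (1.35) or Cnot3KO 2 (1.32), and Lpin3 without Control 1 (2.06) or Control 2 (1.77). Apob lost it without any array but Cnot3KO 1 (-1.14, -1.13 and -0.90), and Fitm2 without any array but Control 2 (-0.81, -1.02 and -1.20). The calls of Fitm2, Hsd17b11 and Slc27a2 also ended with no filter on low values (adjusted p = 0.0501, 0.0533 and 0.0529).

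**Figure D4:**
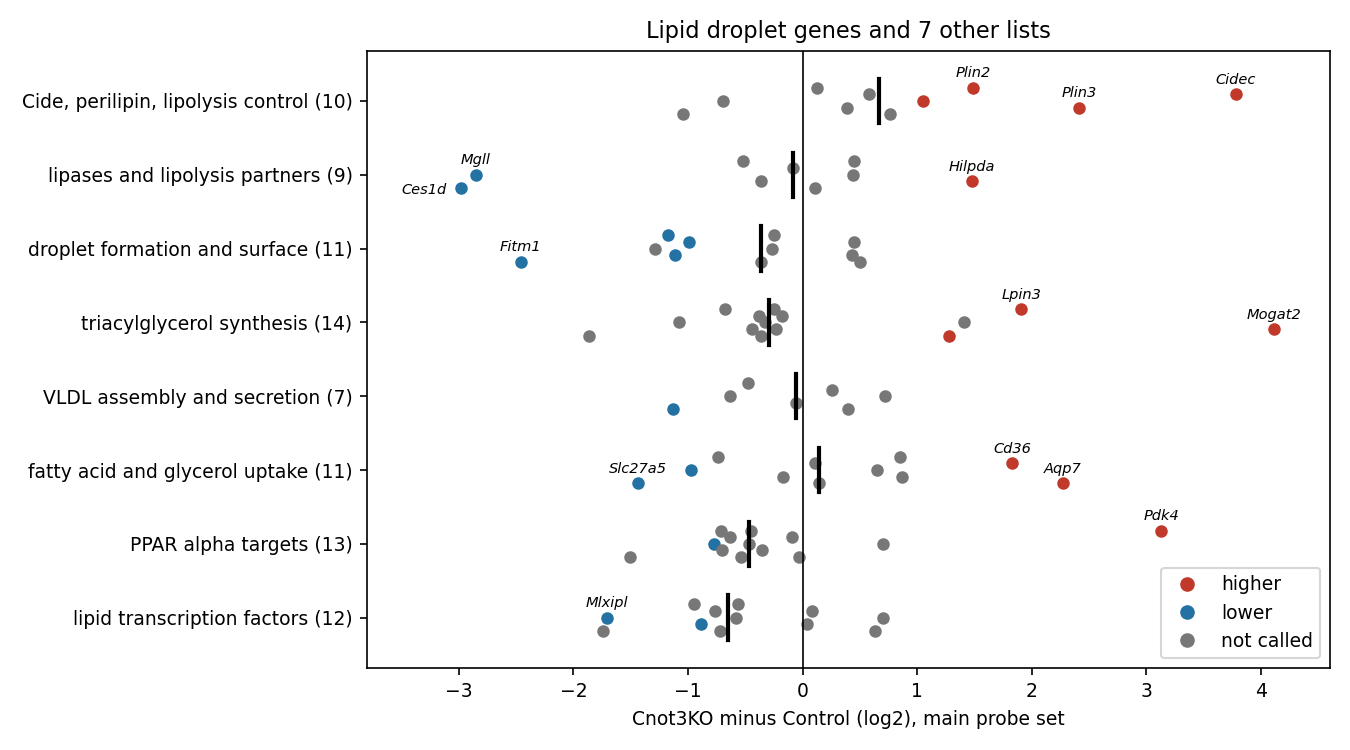
Difference between Cnot3KO and Control (horizontal axis, log2) of every measured gene of the 10 droplet genes (top) and of 7 other lists, with the number measured in brackets; red and blue points are genes called higher and lower, grey points are not called, black bars are medians, and called genes with the largest differences are named. The top list has its median at 0.67 and no blue point, while droplet formation and surface has its median at -0.36 and no red point.

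Since Cidea, Cidec and Plin4 are also genes of fat cells, markers of cells other than hepatocytes were read on the same arrays. Adipocyte markers were low throughout: 4 of the 7 listed had a probe set of their own, their summed intensity was 15.6 and 18.7 in Cnot3KO livers, against 18.0 and 19.6 in Control livers, and limma called 0 of the 2 that passed the filter (0 also with the unadjusted p under 0.05). The defining adipocyte genes Adipoq (1.11 and 1.12 in Cnot3KO, 1.39 and 1.30 in Control) and Lep (1.16 and 1.29 in Cnot3KO, 1.39 and 1.53 in Control) lay below the 20th percentile on all arrays. Retn was at 2.99 and 3.50 in Cnot3KO and 3.28 and 3.39 in Control, and Ucp1, the uncoupler of brown fat, at 1.69 and 1.49 in Cnot3KO and 1.62 and 1.92 in Control. Only Retn and Ucp1 entered the test, both at low levels, so these markers cannot show whether fat cells differed between the groups. Outside this list, Aqp7, the glycerol channel of fat cells, was called higher (2.27). The part of fat cells in the higher levels of Cidec and Cidea was not tested.

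Hepatocyte markers summed to 64541 and 63773 in Cnot3KO livers, against 58425 and 56639 in Control livers, and limma called 0 of 8 (1 at an unadjusted p under 0.05), among them Apoa1 and Ahsg, which had the largest differences of this list. Some markers of 3 other liver cell types were called higher with the genotype. The macrophage list summed to 3487 and 3782 in Cnot3KO livers, against 2096 and 1856 in Control livers, with 2 of 7 called higher (Cd68 by 2.34 ± 0.23 and Cd5l by 1.10 ± 0.18) and 0 lower. The stellate cell list, cells that store retinyl ester in droplets of their own, summed to 2504 and 1833 in Cnot3KO livers, against 1315 and 1132 in Control livers, with 2 of 6 higher (Dcn by 1.09 ± 0.20 and Pdgfrb by 0.96 ± 0.21) and 0 lower. Most of that sum was Dcn (1786 and 1342 in Cnot3KO, 758 and 700 in Control). Lrat, Ngfr, Des and Reln differed by -0.19, -0.09, 0.07 and 0.22 and were not called. The cholangiocyte list summed to 308 and 166 in Cnot3KO livers, against 32.1 and 36.4 in Control livers, with 3 of 4 higher (Epcam by 3.69 ± 0.42, Sox9 by 2.79 ± 0.26 and Krt19 by 1.45 ± 0.30) and 0 lower. Cd68 and Sox9 kept their calls with each array left out. Epcam lost its call without Control 1 (3.80), Cd5l without any array but Control 1 (0.96 to 1.11), Dcn and Krt19 without any array but Cnot3KO 2 (0.88 to 1.14 and 1.09 to 1.67), and Pdgfrb without any of them (0.73 to 1.20). These cells also make Plin2 and Plin3, and the part of these cells in the higher levels of Plin2, Plin3, Cidec and Cidea was not tested. In whole liver RNA, a change in the number of cells of a type and a change in RNA per cell cannot be told apart. On stained sections at this age, the paper reports infiltrating macrophages and more cells positive for the Krt19 protein in Cnot3-deficient livers.

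For each of the 4 called genes, the 3 genes with the most similar pattern were found as the smallest distance over the 4 arrays, after each gene's mean was taken off its log2 values. For Cidec these were Npnt (distance 0.091), Zc2hc1a (0.201) and Calml4 (0.21), which differed by 3.85, 3.96 and 3.91. For Plin3 they were Ifi27l2b (0.093), Fam110c (0.102) and Ttyh1 (0.111), which differed by 2.48, 2.45 and 2.46. For Cidea they were Ttc4 (0.029), Gpr65 (0.063) and Smarcb1 (0.065), which differed by 1.05, 1.02 and 1.12. For Plin2 they were Rnf135 (0.078), Trim21 (0.081) and Olfml1 (0.083), which differed by 1.47 to 1.53. Genes of the droplet group were left out of this search beforehand, so their absence from these 12 genes is not a result. None of the 12 genes was in the 7 other lists. With 4 arrays, likeness of pattern reflects the size of the difference and the order of the arrays within each group.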

How the data were processed

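Total RNA from 2 Cnot3KO and 2 Control livers was labelled by the authors and hybridised to Affymetrix Mouse Genome 430 2.0 arrays. The deposited values are intensities on the linear scale that the authors made by RMA (background correction, normalization between arrays and summary over the probes of a probe set); its version, and whether other arrays were normalized together with these, are not given in the sources used here. The intensities were turned to log2 with no added constant. No detection calls were used, and the number of arrays limits the precision.

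Probe sets above the 20th percentile of their array on at least 1 array were kept, after the cut-off in the methods: 38405 of 45037 (85.3%). A single gene was named by 34945 probe sets, more than 1 by 932 and no gene by 9160, and genes were read from the first of these only. Some listed genes, among them Acsl1, Cyp4a10, Plin1, Cfd, Adrb3, Tf and Spp1, were not analysed here.

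Groups were compared with lmFit and eBayes (limma 3.58.1, R 4.3.3), 2-sided, with 5.4 degrees of freedom in total and 3.4 from the prior alone. The median SE was 0.192. The fit was tested on simulated data. Ratios within arrays were compared by an exact permutation test. Summaries were made in Python 3.11.15 (pandas 2.3.3, numpy 2.4.6) and figures in matplotlib 3.10.9. Gene positions and promoters came from RefSeq tables (GRCm38.p6), in which all 10 Entrez identifiers matched.

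Named were the 10 genes with all their probe sets, Cnot3, up to 4 called genes of each list with the largest differences or 2 where none was called, and the 3 nearest patterns of each called gene; Ppara, Pparg, the second probe sets of genes not called on their main one, and the marker genes Adipoq and Lep were added after their values were seen. The genes, lists and tests were chosen with earlier results of these data known. The 17 alternatives covered filters, normalization, prior, replicate block, the methods' t-test, thresholds, choice of probe set and each array left out.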

Additional observations from a re-analysis of the deposited data

How the results depend on the processing

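Cidec (3.67 to 3.90) and Plin3 (2.31 to 2.51) kept their direction under all 17 alternatives and their call under all but the methods' t-test, where the adjusted p was 0.15 and 0.154. The methods' t-test (Student, equal variance) called 1 probe set after Benjamini-Hochberg adjustment, against 5095 as reported, and 0 droplet genes or probe sets and 0 genes of the other lists in either direction; with its unadjusted p under 0.05, 3 droplet genes were higher and 1 lower, and 8 genes of the other lists were higher and 11 lower. The stricter threshold of 0.01 left 970 probe sets called, 2 droplet genes and 2 droplet probe sets were higher, and 4 genes of the other lists were higher and 3 lower. With each array left out in turn, 1711 to 3367 probe sets were called; 2 to 4 droplet genes and 2 to 4 droplet probe sets were higher and 0 lower, and in the other lists 6 genes were higher each time and 4 to 8 lower. One arm then held a single array, assumed to vary like the others. A droplet gene, Cideb, was called lower (1 gene and 1 probe set, against 0) with a mean above the 50th percentile (adjusted p = 0.048), centring on ribosomal protein genes (0.0456) and a prior that follows intensity (0.0482), and 1 gene when probe sets were averaged per gene (0.037). Cideb had no value once _x_at and _s_at probe sets were left out, and Cidea none with a mean above the 50th percentile. The median difference over all probe sets was -0.083 as reported and -0.136 with ribosomal centring. Calls near the threshold were also lost by Fitm2, Hsd17b11 and Slc27a2 with no filter (adjusted p = 0.0501, 0.0533 and 0.0529) and with median centring (0.0511, 0.0524 and 0.0559), by Acaa1b with median centring (0.053), by Acaa1b, Slc27a2 and Pdgfrb with quantile normalization (0.0535, 0.0591 and 0.0538), by Cnot3, Fitm2 and Pdgfrb with the intensity prior (0.0551, 0.0518 and 0.0544), and by Dcn, Dgat1, Hsd17b11, Ldah and Pdgfrb with probe sets averaged (0.0659, 0.135, 0.0589, 0.0609 and 0.0595). Reversed were G0s2 (-0.08 without Control replicate 2, from -0.08 to 0.86 with each array left out), Dgat1 (-0.44 when _s_at probe sets were dropped) and the adipocyte marker Retn (0.16 without Cnot3KO replicate 1, from -0.34 to 0.16 with each array left out).

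Both groups carry replicate numbers 1 and 2, but nothing says that a number marks a shared litter or batch. The numbers were therefore not taken as pairs in the main fit. Array 1 minus array 2 in Control correlated with array 1 minus array 2 in Cnot3KO at r = 0.232 over 38405 kept probe sets. That value does not decide whether a number marks a shared factor. With the replicate number as a block, 4683 probe sets were called, 3 droplet genes were higher (Plin2 lost its call, adjusted p = 0.0549) and 1 gene and 1 probe set were lower (Plin4, adjusted p = 0.0457). The block also ended the calls of Cnot3 (0.0517), Acaa1b (0.0658), Cebpb (0.059), Fitm2 (0.0674) and the cholangiocyte marker Krt19 (0.0688), and left 7 genes of the other lists higher and 11 lower. The causes of these changes were not tested.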
